A study of Mus musculus with 9 samples.

Results

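The cathepsins are proteases that work mostly in lysosomes, and 10 of their genes (Ctsa, Ctsb, Ctsc, Ctsd, Ctse, Ctsh, Ctsk, Ctsl, Ctss and Ctsz) were read by symbol from a table of 16755 genes measured in mouse liver. RNA-seq of polyadenylated RNA was done on 9 male C57BL/6 mice in 3 groups of 3. All of these mice carried Scd2, a stearoyl-CoA desaturase gene, with an exon flanked by loxP sites. The untreated Scd2f/f group received neither agent, and the Scd2f/f DEN+WAD group was given the carcinogen diethyl nitrosamine (DEN, 10 mg/kg) when 2 weeks old and, from an age of 6 weeks, a liquid Western alcohol diet (WAD) containing lard, cholesterol and ethanol. By the labels the diet lasted 4 months, while the study's methods give a longer time. The Scd2f/f;CC DEN+WAD group received the same and also carried Cre under control of the Col1a1 promoter, which deletes Scd2 in cells that use that promoter, such as activated stellate cells and portal fibroblasts. There was no untreated Scd2f/f;CC group, so every ratio to untreated livers is to untreated Scd2f/f livers. The labels call the tissue liver, and the study's text calls the treated tissue tumor-adjacent liver. Each gene had 1 value per group, the authors' mean of normalized read counts, so the spread between mice is unknown, whether single mice of the groups overlapped cannot be seen, and every ratio is a description with no test. The depth per sample is also unknown.

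Cathepsins are made as inactive precursors, carried to lysosomes largely by mannose 6-phosphate receptors, and activated there by removal of a propeptide. Most are cysteine proteases of the papain family (Ctsb, Ctsc, Ctsh, Ctsk, Ctsl, Ctss and Ctsz), Ctsd and Ctse are aspartic proteases, and Ctsa is a serine carboxypeptidase. In liver, hepatocytes use them for the turnover of proteins taken up or delivered by autophagy, and macrophages use them to degrade engulfed material and to process antigens.

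The promoter sequences of Ctss and Ctsc, the members past 2-fold in the results that follow, are shown for reference beside their values. RefSeq sequence of build GRCm38.p6 was given for 7 of the 10 members, in 8 windows from 250 bases before a start to 50 bases after it. Windows for Ctsb, Ctse and Ctsh were not used here. The bases from 250 before the start to 12 from it on are printed, counted as -1 before the start and +1 at it with no 0, on the gene's strand, for Ctss (chr3:95526536-95526797, + strand) and Ctsc (chr7:88277835-88278096, + strand), and capitals mark matches of the words searched.
Ctss: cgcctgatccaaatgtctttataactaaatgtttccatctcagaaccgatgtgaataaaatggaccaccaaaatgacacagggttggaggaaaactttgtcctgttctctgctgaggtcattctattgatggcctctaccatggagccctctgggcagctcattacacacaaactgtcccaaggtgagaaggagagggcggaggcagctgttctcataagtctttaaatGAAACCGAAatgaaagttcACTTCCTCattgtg
Ctsc: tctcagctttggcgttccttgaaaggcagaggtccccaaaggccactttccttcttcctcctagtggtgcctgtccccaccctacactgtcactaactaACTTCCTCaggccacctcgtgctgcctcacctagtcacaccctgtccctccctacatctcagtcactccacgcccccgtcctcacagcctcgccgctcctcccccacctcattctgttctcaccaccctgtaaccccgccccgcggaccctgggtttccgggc

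The words were searched on both strands of whole windows. GAGGAAGT, a word of the kind bound by the myeloid factor PU.1, stood in 3.20% of all 32851 RefSeq windows, and among the members in those of Ctss (from -2 to +6) and Ctsc (from -151 to -144), on the strand opposite to the gene in both. GAAANNGAA, a word bound by interferon regulatory factors, stood in 8.56% of windows and among the members in that of Ctss, from -21 to -13. CACGTG, the core bound by the lysosomal regulator TFEB and related factors, stood in 7.15% of windows, and TCACGTG, which contains it, in 3.77%. Ctsd had CACGTG from -245 to -240 and from -98 to -93, and Ctsa had it from -12 to -7 and from +6 to +11 around its downstream start, each time within TCACGTG on at least 1 strand. Ctsl had CACGTG from -236 to -231 without the flanking T. The RefSeq starts of Ctsd and Ctsl and the downstream start of Ctsa lie within the annotated genes, so parts of these windows do too. None of these words was found in the windows of Ctsk and Ctsz or in the upstream window of Ctsa. A match describes letters and does not show binding.

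Of the 10 members, 8 had a mean over the 3 groups of at least 1 normalized count, the limit used for counting ratios, and Ctse and Ctsk did not. The summed means of all 10 were 799 in untreated livers, 1151 in Scd2f/f DEN+WAD livers and 1038 in Scd2f/f;CC DEN+WAD livers. These were 0.0974%, 0.175% and 0.140% of the sum over all genes, which was 820581, 658322 and 739723. The highest mean of a single gene was 76300, 28200 and 51000, while the 75th percentile of means was 15.5, 15.5 and 15.4. The shares, and means divided by their sum, thus also reflect differences in that total. In Scd2f/f DEN+WAD over untreated livers, Ctss and Ctsc were more than 2-fold higher and no member was more than 2-fold lower, while of the 11784 genes that reached the same limit 6.39% were more than 2-fold higher and 2.87% more than 2-fold lower. Of the 8 members, 7 were higher and Ctsh was lower, and Ctsh was higher too where each group's means were divided by their sum. The median log2 ratio of the 8 was 0.65, beside 0.03 over all 11784 genes, whose 5th and 95th percentiles were -0.79 and 1.18.

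In Scd2f/f;CC over Scd2f/f mice after DEN+WAD, no member passed 2-fold in either direction, beside 0.645% of genes that were more than 2-fold higher and 1.54% more than 2-fold lower. At a limit of 1.5-fold Ctss was the 1 member that was lower, beside 4.87% of genes. The median log2 ratio of the 8 was -0.12, beside 0.01 over all genes, with 5th and 95th percentiles of -0.58 and 0.42. Ctsa, Ctsb, Ctsd, Ctss and Ctsz were lower, whereas Ctsc, Ctsh and Ctsl were higher by at most 0.16 on the log2 scale and were lower where means were divided by their sum. That scaling moved the median gene by 0.32 for DEN+WAD over untreated, by -0.17 for Scd2f/f;CC over Scd2f/f and by 0.15 for Scd2f/f;CC DEN+WAD over untreated. Genes past 2-fold that were higher made up 69.0%, 29.6% and 63.7% of all genes past 2-fold in these comparisons as deposited, and 85.7%, 14.1% and 76.0% with it. Both comparisons use the same Scd2f/f DEN+WAD mean and are therefore not independent.

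**Figure D1:**
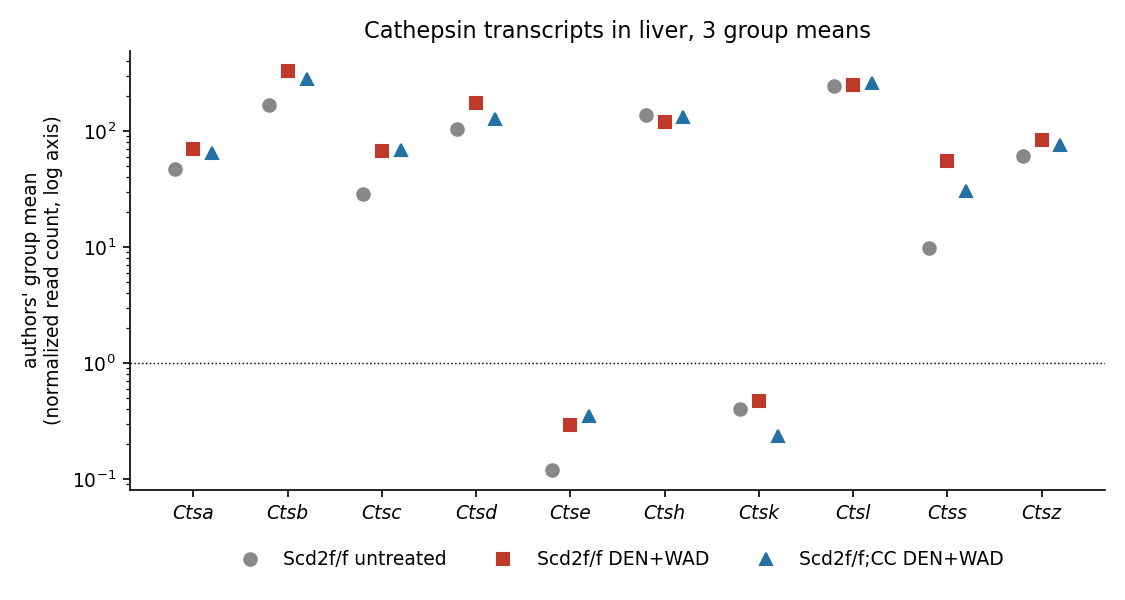
The authors' mean of normalized read counts (log axis) for each cathepsin gene in the untreated Scd2f/f (grey circles), Scd2f/f DEN+WAD (red squares) and Scd2f/f;CC DEN+WAD (blue triangles) groups; the dotted line is the mean of 1. Ctss spans 9.84 to 55.1, Ctsl lies between 243 and 259, and Ctse and Ctsk stay below 1 in every group; no error bars are drawn because single mice were not analysed.

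Ctss (cathepsin S) is an endopeptidase of antigen-presenting cells that cleaves the invariant chain from MHC class II and stays active at neutral pH. Its mean was 9.84 in untreated livers, 55.1 in Scd2f/f DEN+WAD livers and 30.5 in Scd2f/f;CC DEN+WAD livers. The level in Scd2f/f DEN+WAD livers was thus 5.60-fold that of untreated Scd2f/f livers. The level in Scd2f/f;CC DEN+WAD livers was 3.10-fold that of the same untreated livers, a ratio that joins genotype and treatment. Ctss had the highest ratio to untreated livers of the 8 members in both DEN+WAD groups, and 0.501% of all genes had a higher ratio in Scd2f/f DEN+WAD mice. In Scd2f/f;CC over Scd2f/f mice the ratio was 0.554 (log2 -0.85), and 2.17% of genes had a lower one. With means divided by their sum this log2 ratio was -1.02, past 2-fold, beside 2.33% of genes more than 2-fold lower.

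Ctsc (cathepsin C, dipeptidyl peptidase I) removes dipeptides and activates the serine proteases of granules in neutrophils, mast cells and cytotoxic lymphocytes. Its mean was 28.5 in untreated livers, 66.8 in Scd2f/f DEN+WAD livers and 69.2 in Scd2f/f;CC DEN+WAD livers, so the DEN+WAD groups were close to each other and both above the untreated one. The level in Scd2f/f DEN+WAD livers was 2.34-fold that of untreated Scd2f/f livers, and 4.65% of genes had a higher ratio. The level in Scd2f/f;CC DEN+WAD livers was 2.43-fold that of the same untreated livers. Ctss and Ctsc thus had the largest ratios to untreated livers of the 8, and their ratios between the DEN+WAD groups were 0.554 and 1.04. That difference between the genes was not tested.

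Ctsb (cathepsin B), an endopeptidase and dipeptidyl carboxypeptidase that is abundant in liver, had means of 167, 331 and 278 in untreated, Scd2f/f DEN+WAD and Scd2f/f;CC DEN+WAD livers. The level in Scd2f/f DEN+WAD livers was 1.98-fold the untreated one, just short of the 2-fold limit, and 6.50% of genes had a higher ratio. At a limit of 1.5-fold Ctsb and Ctsd joined Ctss and Ctsc, giving 4 members, beside 12.8% of genes. With means divided by their sum these 4 members were more than 2-fold higher, beside 10.5% of genes. In Scd2f/f;CC over Scd2f/f mice the Ctsb ratio was 0.840.

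Ctsl (cathepsin L) is an endopeptidase of broad specificity, and its means of 243, 249 and 259 had the smallest ratios to each other of all members as deposited, while with means divided by their sum those of Ctsh did. Ctsh (cathepsin H), an aminopeptidase, had means of 137, 119 and 133, the lowest of them in Scd2f/f DEN+WAD livers. Ctsz (cathepsin Z or X), a carboxypeptidase that removes single residues, had means of 60.8, 83.9 and 75.9. The log2 ratios of Scd2f/f DEN+WAD over untreated livers were 0.04 for Ctsl, -0.20 for Ctsh and 0.46 for Ctsz. None of the 3 reached 1.5-fold in either comparison. The sign for Ctsh turned to 0.11 with means divided by their sum.

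Ctsk (cathepsin K) is the main collagen-degrading protease of osteoclasts. Its means in untreated, Scd2f/f DEN+WAD and Scd2f/f;CC DEN+WAD livers were 0.403, 0.471 and 0.233. The ratio of Scd2f/f;CC over Scd2f/f mice was 0.495, but 15.7% of genes in the table had a lower mean than Ctsk, and a ratio of such low values was not counted. Without the limit on the mean, Ctsk would be the 1 member more than 2-fold lower.

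Ctsd (cathepsin D) is the main aspartic protease of lysosomes, with means of 105, 176 and 127 in untreated, Scd2f/f DEN+WAD and Scd2f/f;CC DEN+WAD livers. The Scd2f/f DEN+WAD level was 1.68-fold the untreated one, and 9.43% of genes had a higher ratio. The Scd2f/f;CC level was 0.722 of the Scd2f/f level after DEN+WAD, the lowest ratio after that of Ctss among the 8 members, and 7.07% of genes had a lower one. The Scd2f/f;CC mean was 1.21-fold that of untreated livers. Ctse (cathepsin E), an aspartic protease of stomach and immune cells, had means of 0.120, 0.293 and 0.347, and 9.93% of genes had a lower mean. Its ratio to untreated livers was 2.44 in Scd2f/f DEN+WAD mice, on values below 1 in every group.

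Ctsa (cathepsin A) is a serine carboxypeptidase that also protects Glb1 (beta-galactosidase) and Neu1 (neuraminidase) in a lysosomal complex. Its means were 47.3, 69.6 and 64.8, 1.47-fold higher in Scd2f/f DEN+WAD than in untreated livers and 0.931 of the Scd2f/f level in Scd2f/f;CC mice. The partners had means of 16.2, 20.7 and 17.7 for Neu1 and 4.98, 7.44 and 7.91 for Glb1. Their ratios were 1.28 and 1.49 in Scd2f/f DEN+WAD over untreated livers. In Scd2f/f;CC over Scd2f/f mice they were 0.855 and 1.06.

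For Scd2f/f;CC DEN+WAD over untreated livers, Ctss and Ctsc were again the members more than 2-fold higher, beside 4.48% of genes, and no member was more than 2-fold lower, beside 2.55%. The median log2 ratio of the 8 was 0.39, beside 0.04 over all genes. Ctsh, at -0.04, was the 1 of the 8 that was lower, and it was 0.11 with means divided by their sum. This comparison joins genotype and treatment, shares its samples with the others and adds no independent measurement.

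**Figure D2:**
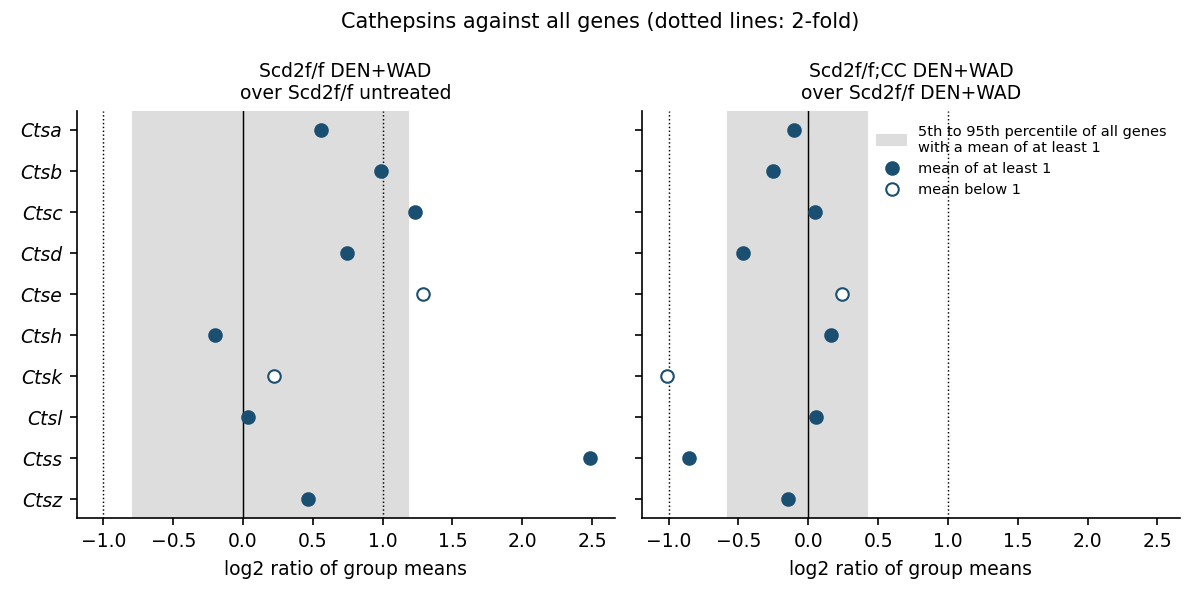
The log2 ratio of the authors' group means for each cathepsin gene, for Scd2f/f DEN+WAD over untreated (left) and Scd2f/f;CC over Scd2f/f after DEN+WAD (right); filled points have a mean of at least 1, open points a lower one, the grey band runs from the 5th to the 95th percentile of all genes, and dotted lines mark 2-fold. Of the filled points Ctss (2.49) and Ctsc (1.23) lie past 2-fold and past the band on the left, where the open point of Ctse (1.29) does too. On the right Ctss (-0.85) is the filled point outside the band, and the open point of Ctsk (-1.02) is also outside it. With means divided by their sum Ctsh is above 0 on the left, and Ctsc, Ctsh and Ctsl are below 0 on the right.

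Levels were compared between genes per kilobase of the transcript with the longest coding sequence in GENCODE M21. On this length Ctsl had the highest level in every group, with 123, 126 and 131 normalized counts per kilobase in untreated, Scd2f/f DEN+WAD and Scd2f/f;CC DEN+WAD livers. Ctsh followed in untreated livers (84.7) and Scd2f/f;CC DEN+WAD livers (82.3), while Ctsd was above it in Scd2f/f DEN+WAD livers (82.7 beside 73.6). Whether neighbours in this order differ beyond the spread between mice cannot be told from group means. The level of Ctss per kilobase was 7.26, 40.7 and 22.5, eighth of the 10 genes in untreated livers, sixth in Scd2f/f DEN+WAD livers and seventh in Scd2f/f;CC DEN+WAD livers. Its share of the summed level of the 10 genes was 1.98%, 8.17% and 4.97%, while that of Ctsl was 33.6%, 25.4% and 29.0%. The order depends on the length taken. With the longest transcript of each gene Ctsl ranked 4, 6 and 5, with Ctsh first in untreated and Scd2f/f;CC DEN+WAD livers and Ctsd first in Scd2f/f DEN+WAD livers. With all exons merged Ctsd was first in every group, and with the coding length Ctsl was first in untreated livers and Ctsb in both DEN+WAD groups. The share of Ctsl was 14.1%, 9.95% and 11.8% with the longest transcript and 18.3%, 12.0% and 14.8% with all exons merged. The share of Ctss was 3.54%, 12.7% and 8.30% with all exons merged and 1.27%, 5.0% and 3.06% with the coding length, highest in Scd2f/f DEN+WAD livers on each of these lengths.

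**Figure D3:**
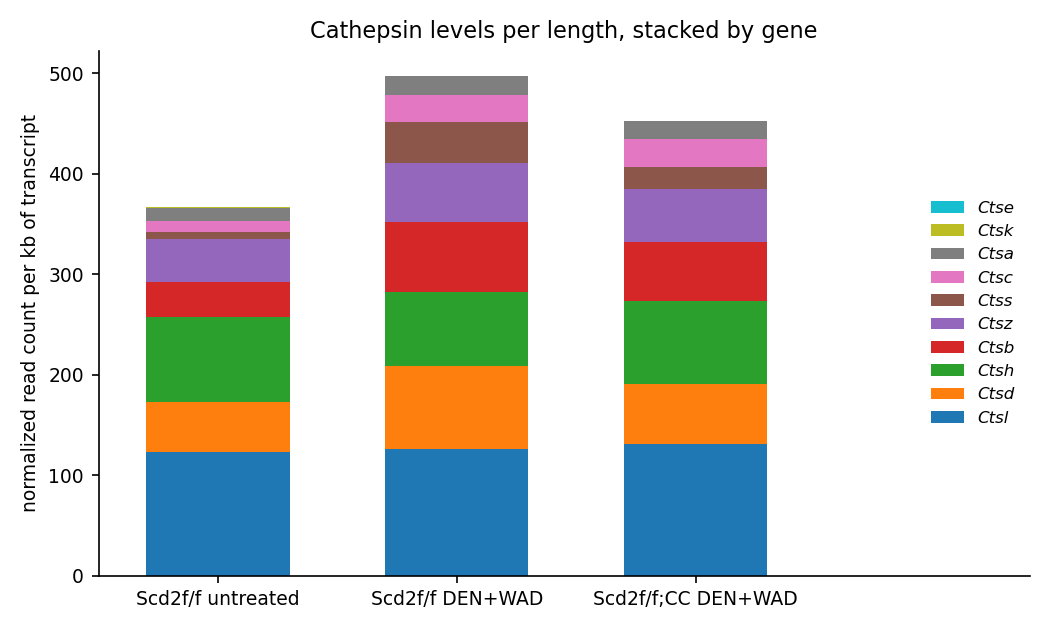
Stacked bars of the normalized read count per kilobase of transcript for the 10 cathepsin genes in the 3 groups, from the authors' means and the transcript with the longest coding sequence, with no error bars. The total is 367 in untreated, 498 in Scd2f/f DEN+WAD and 453 in Scd2f/f;CC DEN+WAD livers, Ctsl is the bottom and tallest segment, the Ctss segment is 7.26, 40.7 and 22.5, and Ctse and Ctsk are too small to be seen.

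The members lie on 7 chromosomes of GRCm38, and the starts given with the table matched GENCODE M21 for all 10. Ctsk (chr3:95499256-95509362, + strand) and Ctss (chr3:95526786-95556403, + strand) are neighbours on chromosome 3, 17.4 kb apart. The flanking genes Arnt (17.7, 19.5 and 20.9) and Golph3l (5.95, 5.61 and 5.31) had means closer to each other than those of Ctss. Ctsc is at chr7:88278085-88310888 (+ strand), Ctsd at chr7:142375911-142388038 (- strand), Ctsb at chr14:63122462-63145923 (+ strand) and Ctsl at chr13:64359337-64370890 (- strand). Ctsa is at chr2:164832873-164841032 (+ strand), Ctsz at chr2:174427493-174439039 (- strand), Ctsh at chr9:90054152-90076089 (+ strand) and Ctse at chr1:131638306-131675505 (+ strand).

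The library kit does not mark strand, so reads from exons shared by overlapping genes cannot be assigned to one of them. Ctsb shares 774 of its 6051 exon bases (12.8%) with Fdft1, the squalene synthase gene on the other strand, whose means were 68.9, 12.6 and 12.0, highest in the untreated livers where Ctsb was lowest. Ctsa shares 10.5% of its exon bases with Pltp, a phospholipid transfer protein gene (9.52, 15.1 and 12.1), and 6.87% with Neurl2. Ctsd shares 34.4% with Gm49369 and Ctsl 26.8% with the antisense gene Gm47123, whose values were not used here. For Ctss and Ctsc no shared exon base was found. The part of these overlaps in the values was not tested.

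The genes whose 3 group means were most like those of Ctss in profile, by Euclidean distance of log2 means centred on each gene, were taken from 11783 genes over 3 groups. They were Sirpa, a myeloid inhibitory receptor (6.09, 33.5 and 19.1), Cyba, a subunit of the phagocyte NADPH oxidase (1.38, 7.48 and 4.22), and Clec4n, a C-type lectin receptor (0.605, 3.47 and 1.95). The profile of Ctsc was nearest to those of Acaa1b, a peroxisomal thiolase (214, 492 and 525), Mme, a membrane metalloendopeptidase (25.7, 58.0 and 61.5), and Nr1d1, a circadian nuclear receptor (18.9, 43.1 and 43.9). The distances ran from 0.030 to 0.046 on the log2 scale. A profile over 3 groups holds 2 ratios, so many genes can lie close to any other.

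Genes that act with the cathepsins were counted from lists. Beside the counts of these lists and of the marker lists below stand the shares over all genes. In Scd2f/f DEN+WAD over untreated livers 6.39% of genes were more than 2-fold higher and 2.87% more than 2-fold lower. In Scd2f/f;CC over Scd2f/f mice these shares were 0.645% and 1.54%. Of the other cathepsin genes 2 of 3 in the table had a mean of at least 1, and neither passed 2-fold (median log2 0.21 for Scd2f/f DEN+WAD over untreated and 0.11 for Scd2f/f;CC over Scd2f/f, the latter -0.06 with means divided by their sum). Of the inhibitors, mostly cystatins and kininogens, 0 of 6 passed 2-fold in these comparisons (0.31 and -0.15), while Ctla2b, an inhibitor of cysteine cathepsins (1.28, 2.28 and 2.74), was 2.14-fold higher in Scd2f/f;CC DEN+WAD than in untreated livers. Of 10 genes for activation and sorting, Lgmn and Psap were more than 2-fold higher in Scd2f/f DEN+WAD than in untreated livers, none was more than 2-fold lower, and none passed 2-fold in Scd2f/f;CC over Scd2f/f mice (medians 0.35 and -0.14). Lgmn, the asparaginyl endopeptidase that trims several cathepsins, had means of 24.7, 67.5 and 51.0, and Psap, the precursor of the saposins, had means of 135, 306 and 238.

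Of 28 lysosomal hydrolases that are not cathepsins, 27 were higher in Scd2f/f DEN+WAD than in untreated livers, with 0 past 2-fold in either direction. Their median log2 ratio was 0.48, beside 0.65 for the 8 cathepsins and 0.03 for all genes. In Scd2f/f;CC over Scd2f/f mice 18 were lower and 8 higher, with a median of -0.09 and again 0 past 2-fold. Of 18 lysosomal membrane proteins and MiT transcription factors, Cd68, Laptm5 and Cd63 were more than 2-fold higher with DEN+WAD (median 0.22), and Cd63 was more than 2-fold lower in Scd2f/f;CC mice (median -0.14). The means of Cd63, a tetraspanin of late endosomes, were 1.99, 6.40 and 1.77, and those of Cd68, a macrophage lysosomal glycoprotein, were 1.64, 8.87 and 5.66.

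Another list held genes for known cathepsin substrates and their partners in antigen processing and matrix. In Scd2f/f DEN+WAD over untreated livers 9 of 10 were more than 2-fold higher, beside 6.39% of all genes (median log2 2.14). In Scd2f/f;CC over Scd2f/f mice 6 of 10 were more than 2-fold lower, beside 1.54% of all genes (median log2 -1.10). The 6 were Cd74, H2-Ab1, H2-Eb1 and the collagen genes Col1a1 (ratio 0.230), Col1a2 (0.319) and Col3a1 (0.369), so the list joins antigen-processing and matrix genes. H2-Aa had a ratio of 0.512. Fn1 (1000, 1280 and 1660) did not pass 2-fold in either comparison and was 1.30-fold higher in Scd2f/f;CC than in Scd2f/f mice. Cd74, the invariant chain that Ctss cleaves, had means of 16.1, 94.9 and 46.8 beside 9.84, 55.1 and 30.5 for Ctss. The MHC class II genes H2-Ab1 (6.48, 37.4 and 16.4), H2-Eb1 (5.23, 29.1 and 12.8) and H2-Aa (7.37, 36.7 and 18.8) also had their highest mean in Scd2f/f DEN+WAD livers. Of the granule proteases that Ctsc activates, 4 were in the table and all had a mean below 1. Their highest group mean was 0.699, while the lowest of Ctsc was 28.5.

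**Figure D4:**
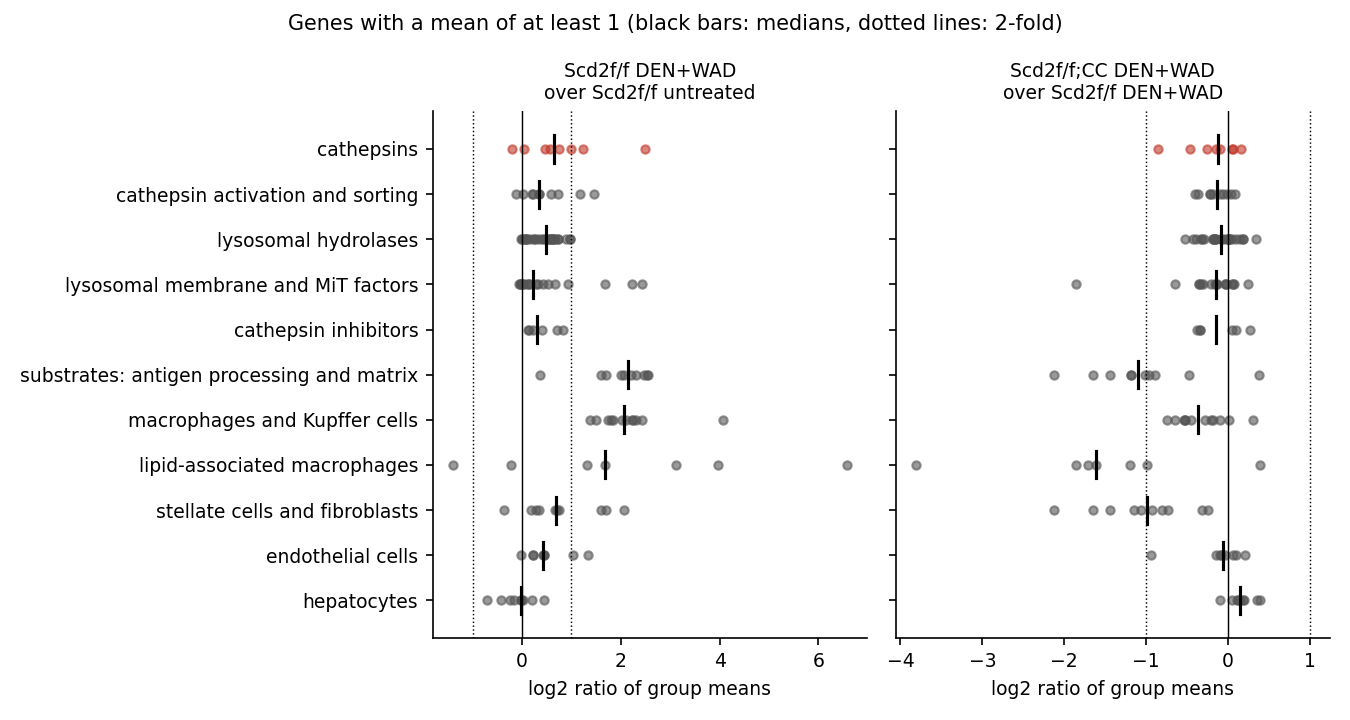
The log2 ratio of the authors' group means for genes with a mean of at least 1, by list, for Scd2f/f DEN+WAD over untreated (left) and Scd2f/f;CC over Scd2f/f after DEN+WAD (right, on its own scale); each point is a gene, black bars are list medians and dotted lines mark 2-fold. The cathepsins (red, medians 0.65 and -0.12) lie near the lysosomal hydrolases (0.48 and -0.09), and the macrophage markers (2.07 and -0.37) lie farther from 0 on both sides; with means divided by their sum the hepatocyte medians (-0.03 and 0.14) change sign.

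Markers of cell types were measured in the same livers, and in bulk tissue fewer cells of a type and less RNA per cell cannot be told apart. The 12 macrophage and Kupffer cell markers were all more than 2-fold higher in Scd2f/f DEN+WAD than in untreated livers (median log2 2.07), and their summed means were 131, 526 and 417. In Scd2f/f;CC over Scd2f/f mice 10 of the 12 were lower and none passed 2-fold (median -0.37). Ctss stood at 7.51%, 10.5% and 7.31% of that sum in the 3 groups. Of 7 markers of lipid-associated macrophages, 5 were more than 2-fold higher and Fabp5 (16.4, 6.19 and 8.14) more than 2-fold lower with DEN+WAD, and 5 were more than 2-fold lower in Scd2f/f;CC mice (medians 1.69 and -1.61). Their sums over the 8 listed genes were 79.1, 97.6 and 39.2, and 26.8, 52.5 and 24.4 without Spp1 (52.3, 45.1 and 14.8), which is also a cholangiocyte marker. Gpnmb had means of 0.0937, 8.98 and 0.638, so it reached the limit on the mean through Scd2f/f DEN+WAD livers alone. Itgax (0.235, 3.66 and 1.12) reached that limit mainly through the same livers. The part of macrophage number or state in the cathepsin values was not tested.

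Hepatocyte markers, which define the labelled tissue, were abundant in every group, with Alb at 21300, 20900 and 22700, and 0 of 9 passed 2-fold in either comparison (sums 45791, 46209 and 51413). Stellate cell and fibroblast markers had sums of 208, 352 and 200. With DEN+WAD 3 of 10 were more than 2-fold higher (Col1a1, Col1a2 and Col3a1). In Scd2f/f;CC mice 5 of 10 were more than 2-fold lower (the same 3, Lum and Pdgfrb). The 3 collagen genes are also in the list of substrates, so those 2 lists are not separate results. Cd68 is in both the macrophage and the lysosomal membrane list, and Cd63 in both the lipid-associated macrophage and the lysosomal membrane list. Itgax is in both the dendritic cell and the lipid-associated macrophage list, and Acp5 in both the osteoclast and the hydrolase list. These lists are not separate results either. The osteoclast list rested on Acp5 (42.8, 57.2 and 57.1), a hydrolase that other cells also make. Cholangiocyte markers had sums of 59.3, 55.0 and 19.6, mostly from Spp1 (52.3, 45.1 and 14.8), which is also in the lipid-associated macrophage list. Of the 3 with a mean of at least 1, 2 were more than 2-fold lower in Scd2f/f;CC mice, Spp1 and Epcam (1.97, 1.82 and 0.5). The other, Sox9 (3, 5.03 and 3.52), did not pass 2-fold and was highest in Scd2f/f DEN+WAD livers. Endothelial markers had sums of 120, 160 and 161, with 2 of 8 more than 2-fold higher with DEN+WAD. The remaining immune lists had low sums, 4.40, 10.1 and 6.45 for dendritic cells and 1.18, 4.74 and 3.68 for neutrophils. For T and NK cells they were 1.63, 5.58 and 3.27, and for B and plasma cells 4.93, 5.38 and 4.55. Of neutrophil markers with a mean of at least 1, 2 of 2 (S100a9 and Csf3r) were more than 2-fold higher with DEN+WAD (median log2 2.03). Both had untreated means below 1, and neither passed 2-fold in Scd2f/f;CC over Scd2f/f mice. Of 3 dendritic cell markers, 1 (Itgax) was more than 2-fold higher with DEN+WAD and more than 2-fold lower in Scd2f/f;CC mice. Itgax had means of 0.235, 3.66 and 1.12 and reached the limit on the mean mainly through Scd2f/f DEN+WAD livers. Scd2 itself had means of 2.46, 6.47 and 1.87, lowest in the Scd2f/f;CC group, in which it was to be deleted. In whole liver these values include cells that do not use the Col1a1 promoter.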

How the data were processed

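Polyadenylated RNA from 9 livers was made into libraries with the TruSeq RNA Library Prep Kit v2 and sequenced on a NextSeq. According to the submitters' processing notes and the study's methods, the authors used STAR 2.6.1, the build mm10 and Partek 6, assigned reads to Gencode M3 genes by Partek E/M, scaled counts by their upper quartile and compared groups with Partek Gene Specific Analysis. The signal analysed is the deposited least-squares mean of normalized counts of each group, with 3 significant digits, in 3 of 18 columns. Among the other columns, gene names and positions were read, while the authors' p-values, FDR, ratios and fold changes were not used. No values of single mice were used, so limma, which was planned for such values, was not run, and no interval or test is given.

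Group means were divided by each other, for genes whose mean over 3 groups was at least 1, with no pseudocount. Members and lists were chosen with earlier results of these data known. Named are the members, at most 4 genes of a list past 2-fold, Scd2, and the 3 nearest profiles of each member past 2-fold with DEN+WAD. Genes named otherwise were chosen after values were seen (overlapping and flanking genes, Glb1, Neu1, Ctla2b, the collagens, Fn1, Alb, Acp5 and examples of markers). The choice of transcript for lengths and the share of Ctss in macrophage markers were also chosen after values were seen. The promoters printed and the words searched were likewise chosen with values known. Lengths and overlaps were from GENCODE M21. The counting step was tested on simulated data. Python 3.11.15 was used with NumPy 2.4.6, pandas 2.3.3 and Matplotlib 3.10.9. Alternatives were other fold limits, no limit on the mean, a pseudocount of 1, centring, division by the sum, and other lengths.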

Additional observations from a re-analysis of the deposited data

How the results depend on the processing

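The table gives group means of unknown depth, so no result carries an error and small ratios rest on unknown spread. Members past 2-fold numbered 2 higher for Scd2f/f DEN+WAD over untreated, 0 lower for Scd2f/f;CC over Scd2f/f and 2 higher for Scd2f/f;CC DEN+WAD over untreated. A 1.5-fold limit gave 4, 1 and 3 (beside 12.8%, 4.87% and 10.9% of genes), and a 3-fold limit 1, 0 and 1 (2.89%, 0.382% and 1.46%). Without a limit on the mean they were 3, 1 and 3 (9.35%, 4.03% and 6.34%), with Ctse added to the higher and Ctsk to the lower. Centring on the median gene gave medians of 0.62 and 0.34 on the log2 scale for the DEN+WAD groups over untreated, instead of 0.65 and 0.39. Division by the sum gave 4 higher members (10.5% of genes) and a median of 0.97 (0.35 over all genes) in the first comparison, 1 lower (Ctss, 2.33% of genes) and a median of -0.29 (-0.16) in the second, and 2 higher (5.87%) and a median of 0.54 (0.19) in the last. It reversed the sign of Ctsh in all 3 comparisons (0.11, -0.01 and 0.11) and of Ctsc (-0.12) and Ctsl (-0.11) in the second. A pseudocount of 1 changed no count of members past 2-fold. The share of Ctss in the summed level was 1.98%, 8.17% and 4.97% in untreated, Scd2f/f DEN+WAD and Scd2f/f;CC DEN+WAD livers, 2.59%, 10.0% and 6.30% with the longest transcript, 3.54%, 12.7% and 8.30% with all exons merged, 1.27%, 5.0% and 3.06% with the coding length, and 1.23%, 4.79% and 2.94% with no length, the lengths being chosen after seeing the data except for no length. No paired analysis was possible because only group means were used, and for the same reason no sample was left out in turn.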
